A study of Homo sapiens with 6 samples.

Results

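Transcripts of the COPI and COPII vesicle coats, the small GTPases that recruit them, the receptors that load cargo between the endoplasmic reticulum (ER) and the Golgi, and 3 Golgi matrix proteins were followed in H358 cells with lowered RBM47. H358 is a human lung cancer line (non-small-cell type) with epithelial character, and RBM47 is an RNA-binding protein. The group comprises 41 named genes, found by symbol among 57150 genes of the deposited table, each with 1 row there. They were chosen by name for their known role in this transport step, with earlier results of these data known. One group of 3 libraries came from cells given lentiviral short hairpin RNAs against RBM47, and the other group of 3 from the same line after a control knockdown. The labels describe the cultures as triplicates and give no further allele, drug or time point. All libraries come from 1 cell line, and the sources used here do not give how many hairpins were used or their sequences. Values are FPKM (fragments scaled to transcript length and to the mapped fragments of the library), which can be compared between genes because they are per length.

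Proteins leave the ER in COPII vesicles. The GTPase SAR1, loaded with GTP by the ER membrane protein PREB (SEC12), brings in the SEC23-SEC24 inner layer, where SEC24 reads sorting signals on cargo, and the SEC13-SEC31 cage then closes around the bud. COPI, a coatomer of several subunits recruited by ARF GTPases, carries escaped ER residents and the cargo receptors back from the Golgi. Stress in the ER is known to raise many genes of this machinery, since the transcription factors of the unfolded protein response act on secretory genes.

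RBM47 itself was at 85.2, 92.4 and 87.9 FPKM in the controls and at 12.0, 13.4 and 13.5 FPKM after its knockdown, which leaves 14.6% of the control level (log2 fold change -2.68 with SE 0.06, adjusted p = 2.04e-06 in limma). In these bulk samples, fewer cells of a kind and less RNA per cell cannot be told apart. Total FPKM per library lay between 651951 and 673552. The depth in fragments is unknown. Judged from the smallest nonzero values, each control library was somewhat deeper (1.08 to 1.16 times knockdown replicate 1) than each knockdown library (1 to 1.05). The part of depth in the results was not tested. The tested transport genes had means from 4.25 to 324 FPKM, well above the lowest values. Of 5 epithelial markers (EPCAM, CDH1, KRT8, KRT18 and KRT19), none was under 407 FPKM in any library, and the last 4 of them were lower in the knockdown (limma, adjusted p = 0.00682 to 0.0193). The part of that difference in the results was not tested. Of 10 markers of leukocytes, fibroblasts and endothelial cells, COL1A1 reached 10.4 to 15.5 FPKM, CD14 0.549 to 1.31, and the others stayed at or under 0.371 FPKM.

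Most transport genes had slightly lower means in the knockdown, and a minority of them passed the threshold. Of the 41 genes 40 had a mean of at least 1 FPKM and were tested, and COPZ2, an alternative small coatomer subunit, lay below that level. In limma on log2(FPKM + 1) over all 14419 tested genes (Benjamini-Hochberg adjusted p under 0.05), 9 of the 40 were lower in the knockdown, 2 were higher and 29 did not pass. That is 27.5%, against 11.4% of all tested genes, for genes chosen with earlier results of these data known. Lower calls made up 22.5% of the 40 and 6.34% of all tested genes, and higher calls 5% and 5.1%. Among the 8087 genes whose mean reached 10 FPKM, 15% were called, with 9.58% lower and 5.4% higher. Among the 38 transport genes at that level, 28.9% were called. Log2 fold changes were negative in 30 of the 40, and their median was -0.11, where 48.8% of all tested genes were negative and the median was 0.01. With quantile normalization the median of the 40 was -0.069 with 27 negative, and with the same total FPKM it was -0.087 with 28 negative. Over all 16 alternatives 27 to 32 were negative. The 2 groups did not overlap in 24 of the 40, with the knockdown below in all of these except SAR1A and TMED4. The background for such separation was 34% of all tested genes, 16.8% with the knockdown lower and 17.3% with it higher. At a mean of 10 FPKM or more it was 38.9%, with 21.8% lower and 17.1% higher. At an unadjusted p under 0.05 in limma, 18 of the 40 were lower and 2 higher. The same held for 28.4% of all tested genes, 14.3% lower and 14.1% higher, and for 34.5% of those with a mean of 10 FPKM or more, 19.6% lower and 14.8% higher.

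Fewer calls were made whichever library was left out, also among all tested genes (from 1650 to between 630 and 1255). Without RBM47 knockdown replicates 1, 2 and 3 the 40 genes held 8, 5 and 6 calls, and without control replicates 1, 2 and 3 they held 5, 5 and 4. SEC23B, TMED2, TMED5 and TMED7 passed in each of these 6 fits and in the 10 fits with other settings. The other 7 calls were each lost in at least 1 of the 16. After scaling to the same upper quartile 9 genes were lower and none higher, so that both higher calls were lost. With the same total FPKM 7 were lower and 2 higher, while all tested genes turned from 914 lower and 736 higher to 786 lower and 914 higher. With quantile normalization the 40 genes also held 7 lower and 2 higher calls.

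**Figure D1:**
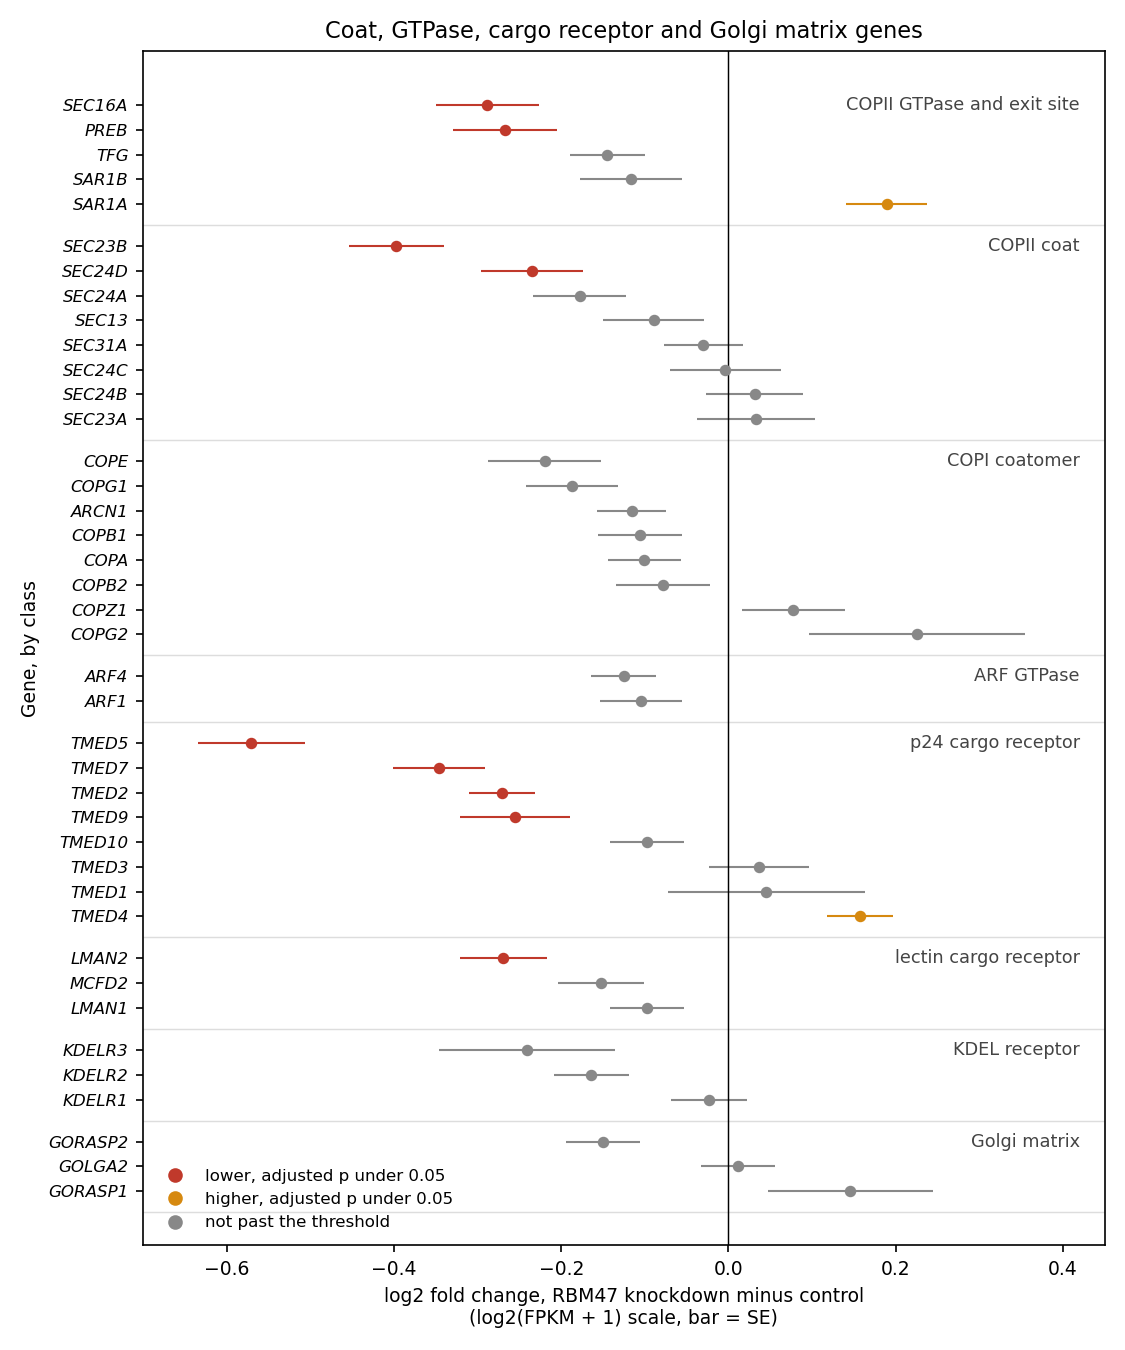
Log2 fold change (RBM47 knockdown minus control knockdown, log2(FPKM + 1) scale, 3 libraries per group) of the 40 tested genes, by class; points are limma estimates, bars 1 SE, and colour gives the call. The 9 lower calls are in the COPII, p24 and lectin classes, the 2 higher ones are SAR1A and TMED4, and no coatomer gene passed.

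The p24 family held the largest fall. Its members are membrane proteins that travel in both coats and act as cargo receptors, among others for GPI-anchored proteins. Of its 8 genes among the 41, 4 were lower, 1 was higher and 3 did not pass. Of all tested genes 6.34% were called lower and 5.1% higher. At a mean of 10 FPKM or more these shares were 9.58% and 5.4%. TMED5, a p24 protein of the gamma subfamily, had the largest change of the 41 genes. It was at 41.1, 40.4 and 47.3 FPKM in the knockdown and at 63.8, 64.5 and 63.9 FPKM in the controls. Knockdown replicate 3 was the highest of its group and still lay well below the controls. The means were 42.9 ± 3.79 and 64.1 ± 0.342 FPKM (SD, n = 3), with 67.0% of the control level left (log2 fold change -0.57 with SE 0.06, adjusted p = 0.00298 in limma). TMED5 (ENSG00000117500, hg19 chromosome 1, 93615299 to 93828149) stands in a locus that the table gives to 7 genes, of which DR1 is the next most abundant at 37.6 FPKM.

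TMED7, a second gamma member that has been linked to surface delivery of TLR4, was at 56.3, 60.9 and 53.3 FPKM in the knockdown and at 72.0, 72.8 and 72.3 FPKM in the controls. The highest knockdown value lay under the lowest control value by more than the spread of either group, and 78.5% of the control level was left (log2 fold change -0.35 with SE 0.06, adjusted p = 0.00928 in limma). Its locus (ENSG00000134970, chromosome 5, 114914339 to 114968689) also holds the readthrough gene TMED7-TICAM2, listed at a mean of 4.31 FPKM. How reads shared by the pair were divided is not known. TMED2, the beta member and partner of TMED10, was at 182, 177 and 186 FPKM against 221, 215 and 222.4 FPKM in the controls (ENSG00000086598, chromosome 12, 124066767 to 124083116). Both groups were tight and did not overlap (log2 fold change -0.27 with SE 0.04, adjusted p = 0.00668 in limma).

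The alpha members TMED9 and TMED4 differed in opposite directions. TMED9 (ENSG00000184840, chromosome 5, 177019159 to 177023125) was at 136, 128 and 117 FPKM in the knockdown and at 159.8, 145 and 149.8 FPKM in the controls (log2 fold change -0.26 with SE 0.07, adjusted p = 0.045 in limma). Its values did not overlap, with the gap narrower than the range of either group, and the call held in only 1 of the 6 fits without 1 library (adjusted p up to 0.124). TMED4 (ENSG00000158604, chromosome 7, 44617493 to 44621886) was at 69.0, 70.0 and 68.6 FPKM in the knockdown and at 61.3, 62.4 and 62.2 FPKM in the controls (0.16, SE 0.04, adjusted p = 0.0425). All knockdown libraries were above all controls, yet the call was lost in each of the 6 fits without 1 library (0.0595 to 0.131). TMED10, the delta member and the most abundant transcript of the 41 genes, was at 304, 330 and 306 against 337, 336.5 and 331 FPKM, each knockdown library below each control (-0.10, adjusted p = 0.196). TMED1 and TMED3, both gamma members, had log2 fold changes of 0.05 and 0.04 with overlapping groups (adjusted p = 0.838 and 0.729). The 8 genes summed to 922 ± 23.9 FPKM in the knockdown and 1032 ± 5.76 FPKM in the controls (SD, n = 3), or 89.4%. The sums of the COPII genes, the coatomer genes and the lectin-type receptors stood at 93.0%, 94.7% and 89.0% of the controls.

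**Figure D2:**
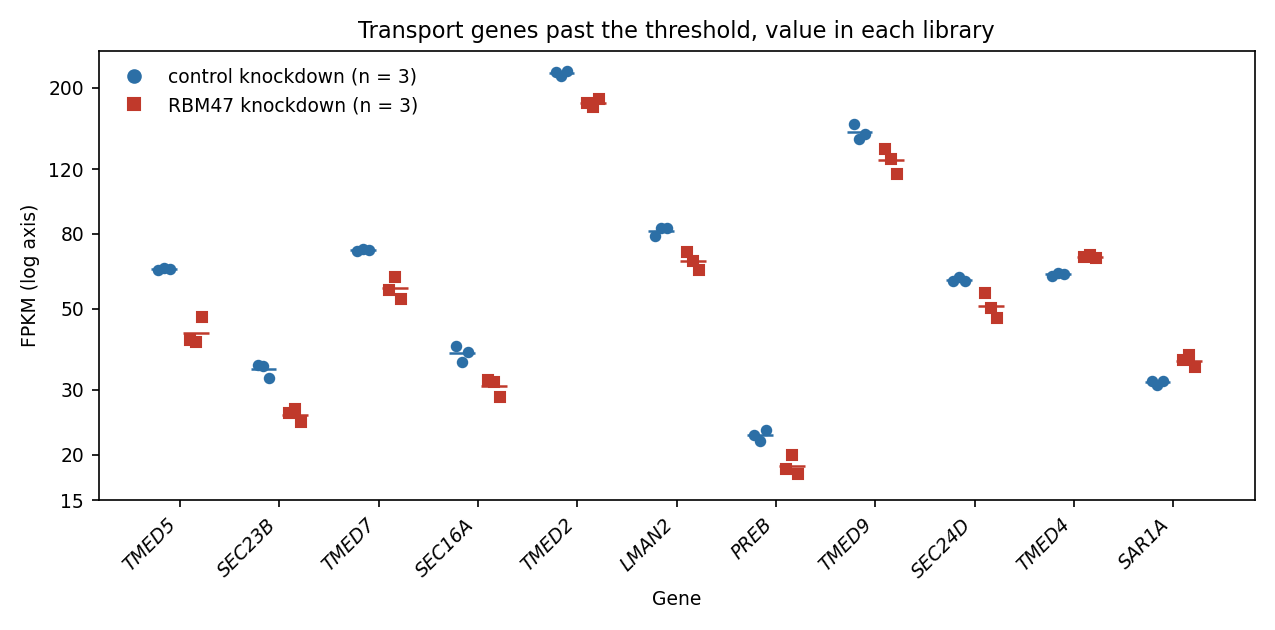
FPKM (log axis) of the 11 genes past the threshold in each of the 3 control and 3 RBM47 knockdown libraries, ordered by log2 fold change, with horizontal lines at group means. The groups do not overlap in any of the 11, and on the log axis the gap is widest for TMED5 (40.4 to 47.3 against 63.8 to 64.5 FPKM).

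In the COPII machinery 4 of 13 genes were lower, 1 was higher and 8 did not pass. The shares over all tested genes were 6.34% lower and 5.1% higher, and 9.58% and 5.4% at a mean of 10 FPKM or more. SEC23B, one of the paralogues that form the inner layer and activate the SAR1 GTPase, was at 26.0, 26.6 and 24.5 FPKM in the knockdown and at 35.2, 34.9 and 32.4 FPKM in the controls. Every knockdown library lay below every control library, and 75.2% of the control level was left (log2 fold change -0.40 with SE 0.06, adjusted p = 0.00623 in limma). SEC23B (ENSG00000101310, chromosome 20, 18488137 to 18542059) is the gene mutated in a congenital dyserythropoietic anaemia. Its paralogue SEC23A was at 44.0, 46.0 and 46.5 against 43.0, 49.5 and 41.3 FPKM, with overlapping groups (0.03, adjusted p = 0.8).

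Among the cargo adaptors SEC24A to SEC24D, SEC24D was the most abundant and the only one to pass. It was at 55.1, 50.2 and 47.3 FPKM in the knockdown and at 59.3, 60.9 and 59.4 FPKM in the controls (ENSG00000150961, chromosome 4, 119643978 to 119759838). The knockdown libraries were lower and spread more widely than the controls (log2 fold change -0.23 with SE 0.06, adjusted p = 0.0471 in limma), and the call held in 1 of the 6 fits without 1 library (adjusted p up to 0.139). SEC24A had -0.18 with groups apart (adjusted p = 0.0822), while SEC24B and SEC24C had 0.031 and -0.0037 with overlapping groups (0.765 and 0.98). The cage subunits SEC13 and SEC31A had -0.09 and -0.03 (adjusted p = 0.374 and 0.722).

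At the exit sites, SEC16A, the scaffold on which COPII assembles, was at 32.0, 31.5 and 28.8 FPKM in the knockdown and at 39.5, 35.8 and 38.0 FPKM in the controls (ENSG00000148396, chromosome 9, 139334549 to 139372141). PREB, the exchange factor for SAR1, was at 18.2, 19.9 and 17.7 against 22.6, 21.8 and 23.4 FPKM (ENSG00000138073, chromosome 2, 27346682 to 27357543). Both were lower in every knockdown library, at 81.4% and 82.4% of the control level, with log2 fold changes of -0.29 and -0.27 (SE 0.06 each, limma, adjusted p = 0.0246 and 0.0319). Of the 6 fits without 1 library SEC16A passed in 2 and PREB in 1 (adjusted p up to 0.0832 and 0.112). TFG, which clusters COPII carriers near exit sites, had -0.14 with groups apart (adjusted p = 0.0781).

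Of the SAR1 GTPases, which start coat assembly, SAR1A was higher and SAR1B did not pass. SAR1A (ENSG00000079332, chromosome 10, 71909960 to 71930279) was at 36.2, 37.3 and 34.6 FPKM in the knockdown and at 31.6, 31.0 and 31.8 FPKM in the controls, higher in every knockdown library (log2 fold change 0.19 with SE 0.05, adjusted p = 0.0457 in limma). The call held in 1 of the 6 fits without 1 library (adjusted p up to 0.144), and its locus is shared with the pseudogene CALM2P2, listed at 14.95 FPKM. SAR1B, which is mutated in chylomicron retention disease, was at 37.5, 34.2 and 36.3 against 40.96, 36.6 and 39.8 FPKM, with overlapping groups (-0.12, adjusted p = 0.251).

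None of the 8 tested coatomer genes passed, and 3 had an unadjusted p under 0.05 in limma, all with negative fold changes. Of all tested genes 28.4% had such a p, 14.3% with negative and 14.1% with positive fold changes. Negative values were found in 6 subunits, from -0.22 (COPE, adjusted p = 0.079) over COPG1 (-0.19, 0.0688), ARCN1 (-0.12, 0.117), COPB1 (-0.11, 0.211) and COPA (-0.10, 0.178) to COPB2 (-0.08, 0.405). In all of these but COPB2 the groups did not overlap, which makes 5 of the 8 tested coatomer genes. All 5 were lower in the knockdown. Groups were apart in 34% of all tested genes, 16.8% with the knockdown lower. At a mean of 10 FPKM or more the shares were 38.9% and 21.8%. COPZ1, the most abundant coatomer transcript, was at 128, 138 and 126 FPKM in the knockdown and at 118, 120.1 and 134 FPKM in the controls, with overlapping groups (0.08, adjusted p = 0.451). COPG2, the minor gamma subunit, stood at 4.12 to 5.02 against 3.39 to 4.73 FPKM (0.23, SE 0.13, adjusted p = 0.296). COPZ2 did not exceed 0.342 FPKM and was listed at 0 in 3 of the 6 libraries. The GTPase ARF1, which brings coatomer to Golgi membranes, was at 175, 181 and 166 against 179, 191 and 191 FPKM (-0.10, adjusted p = 0.21). ARF4 had -0.13 with groups apart (adjusted p = 0.0774), and 1 of the pair had an unadjusted p under 0.05. Whether the coatomer genes differed from the COPII genes was not tested.

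Of the lectin-type receptors for glycoproteins, LMAN2 (VIP36) was lower. It was at 71.1, 67.4 and 63.8 FPKM in the knockdown and at 78.7, 82.7 and 82.7 FPKM in the controls (ENSG00000169223, chromosome 5, 176758563 to 176778853). The groups were clearly apart, with 82.8% of the control level left (log2 fold change -0.27 with SE 0.05, adjusted p = 0.0189 in limma), and the call held in 3 of the 6 fits without 1 library (adjusted p up to 0.071). LMAN1 (ERGIC-53) and MCFD2 together carry blood coagulation factors V and VIII out of the ER. They had -0.10 and -0.15, with every knockdown library below every control library (adjusted p = 0.199 and 0.0982).

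No KDEL receptor, the proteins that return escaped ER chaperones through COPI, passed, and 1 of 3 had an unadjusted p under 0.05 in limma. Such a p was found in 28.4% of all tested genes, 14.3% lower and 14.1% higher. KDELR1 was at 112, 107 and 103 against 107, 111 and 109.8 FPKM, with overlapping groups (-0.02, limma, adjusted p = 0.771). KDELR2 was at 82.9, 78.5 and 77.1 against 87.1, 90.1 and 90.2 FPKM, with groups apart (-0.16, SE 0.05, adjusted p = 0.0564), just outside the threshold. KDELR3, the least abundant, was at 7.47, 9.66 and 7.38 against 9.89, 9.21 and 10.2 FPKM (-0.24, SE 0.11, adjusted p = 0.181), and knockdown replicate 2 reached into the control range. In the Golgi matrix GORASP2 (GRASP55) was at 78.3, 79.97 and 82.2 against 86.1, 89.98 and 91.1 FPKM, groups apart (-0.15, adjusted p = 0.0666). GOLGA2 (GM130) and GORASP1 (GRASP65) had 0.01 and 0.15 with overlapping groups (adjusted p = 0.895 and 0.375), and 1 of these 3 genes had an unadjusted p under 0.05.

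The share held by a paralogue was apart between the groups in several families, and the exact permutation test used for shares cannot go below p = 0.1 with 3 against 3 libraries. A paralogue's share is its FPKM as a percent of its family's summed FPKM in the same library, so that scaling between libraries drops out. Only family genes among the 41 were summed, so that the ARF family here is ARF1 and ARF4 without the other ARF genes. SEC23B made up 37.1, 36.6 and 34.5% of SEC23 transcripts in the knockdown and 44.99, 41.4 and 43.99% in the controls. SAR1A made up 49.1, 52.1 and 48.9% of SAR1 transcripts against 43.6, 45.9 and 44.4%. In neither family did the groups overlap, and the mean share differed by -7.36 and 5.43 percentage points.

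Within SEC24, the share of SEC24D was 44.7, 43.2 and 42.4% in the knockdown and 46.9, 46.9 and 47.0% in the controls, lower in each knockdown library. Those of SEC24B and SEC24C were higher by 1.80 and 2.23 points, and that of SEC24A overlapped. KDELR1 made up 55.3, 54.9 and 54.9% of KDEL receptor transcripts against 52.3, 52.7 and 52.2%, a separation far larger than the spread within groups, with KDELR2 at a mean of 40.8% against 42.9%. GORASP1 held 19.2, 16.3 and 19.8% of its pair against 14.8, 15.4 and 15.99%. The COPG, COPZ and ARF shares overlapped. Of 19 shares in 8 families, 11 had groups apart, each with a two-sided exact permutation p = 0.1, the smallest p that 3 against 3 libraries can give (adjusted p = 0.173 over the 19). Shares within a family sum to 100 percent and are not independent, so that in a pair of paralogues both shares separate or neither does. How often the shares of other genes separate was not tested, and among single tested genes 34% had groups apart.

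The p24 subfamilies were added after the values were seen. TMED3 made up 49.8, 49.4 and 46.8% of gamma transcripts in the knockdown and 41.5, 41.1 and 41.7% in the controls, while TMED5 made up 17.5, 16.9 and 21.6% against 24.6, 24.03 and 24.2%. TMED4 held 33.6, 35.3 and 37.0% of the alpha pair against 27.7, 30.03 and 29.3%. In all 3 genes the groups did not overlap, and no p is given since they were chosen for their differences. The TMED7 share was also lower without overlap (means of 24.6% and 27.4%), while that of TMED1 overlapped (8.08% and 6.84%). TMED9 holds the rest of the alpha pair, so that its share is no separate comparison. The FPKM of TMED3 itself overlapped between the groups. Among single tested genes 34% had groups apart.

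**Figure D3:**
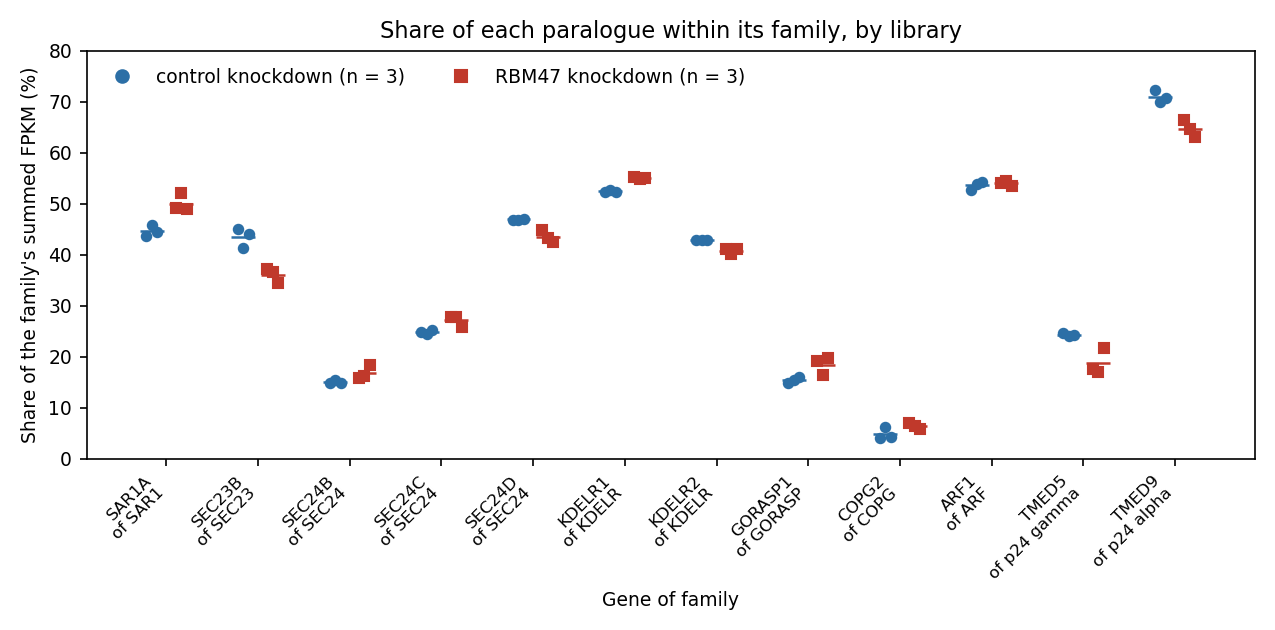
Share of selected paralogues in the summed FPKM of their family (%), for each of the 3 control and 3 RBM47 knockdown libraries, with horizontal lines at group means. SEC23B stands at 41.4 to 44.99% in the controls and at 34.5 to 37.1% in the knockdown, SAR1A and KDELR1 lie higher in the knockdown, and the ARF1 and COPG2 shares overlap.

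A wider list of ER-Golgi transport genes (tethers, Rab GTPases, SNAREs, further cargo receptors and ARF regulators) was also chosen with earlier results known. It held 80 genes, of which 77 were tested. Of these 12 were lower, none higher and 65 did not pass (limma), and at an unadjusted p under 0.05 they were 21 and 1, beside 14.3% lower and 14.1% higher among all tested genes. The 12 calls, all lower, are 15.6% of the list, against 6.34% of all tested genes called lower and 11.4% called in either direction. At a mean of at least 10 FPKM, the level of most genes of the list, these shares were 9.58% and 15%. The median log2 fold change was -0.08, and 55 were negative. The count of 12 fell to 7, 4 and 10 without RBM47 knockdown replicates 1, 2 and 3 and to 7, 6 and 4 without control replicates 1, 2 and 3.

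CTAGE5, an exit-site protein that binds PREB and helps export large cargo, had the largest change in this list. It was at 30.1, 24.1 and 23.4 FPKM in the knockdown and at 44.1, 44.1 and 38.3 FPKM in the controls (log2 fold change -0.69 with SE 0.10, adjusted p = 0.00668 in limma). The groups lay far apart, and the locus is shared with 6 other genes. ARFGAP1, which makes ARF1 hydrolyse GTP, was at 28.5, 26.1 and 26.4 against 35.6, 35.3 and 36.1 FPKM (-0.39, adjusted p = 0.00498). SURF4, a receptor for soluble cargo such as lipoproteins, was at 83.7, 83.7 and 79.2 against 103, 101 and 104 FPKM (-0.32, adjusted p = 0.00493). The ER-Golgi SNARE SEC22B was at 37.8, 37.4 and 39.4 against 48.0, 46.5 and 47.5 FPKM (-0.30, adjusted p = 0.00694). In these 4 genes every knockdown library was below every control library, and they passed in all 16 alternatives. TRAPPC10 (-0.30), TRAPPC9 (-0.29), the golgin GOLGA5 (-0.25) and ARFGAP3 (-0.25) had adjusted p = 0.0182, 0.0262, 0.0122 and 0.0141. TRAPPC9 passed in none of the 6 fits without 1 library and TRAPPC10 in 1, while GOLGA5 and ARFGAP3 passed in 4 each.

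**Figure D4:**
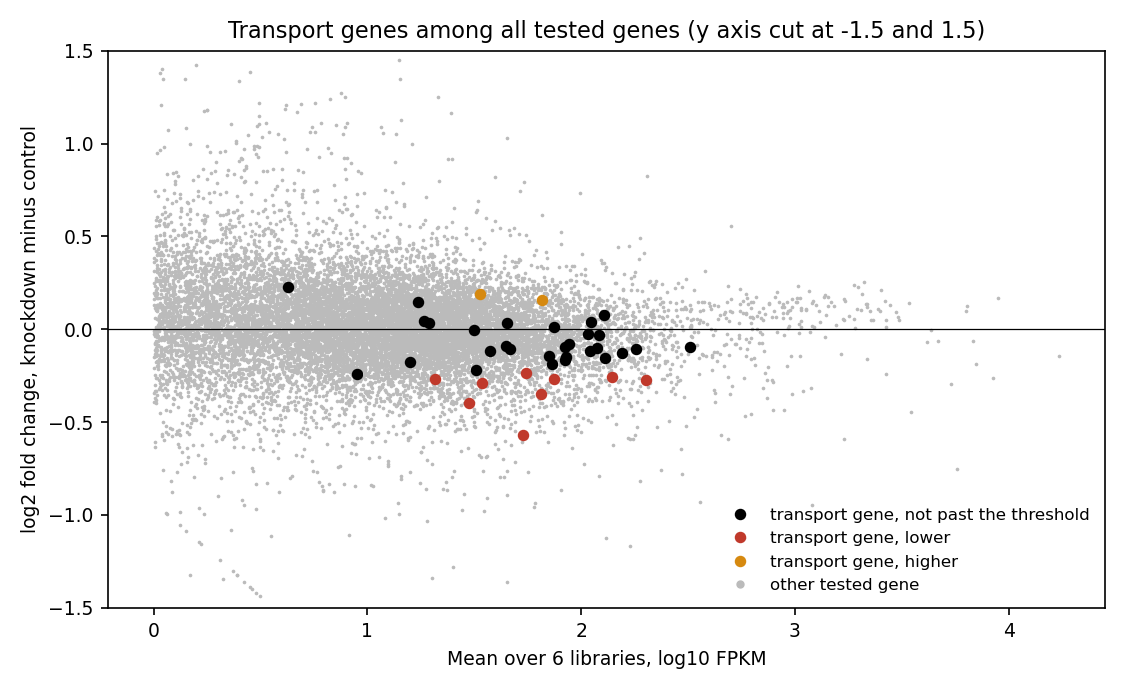
Log2 fold change (knockdown minus control) against the mean over 6 libraries (log10 FPKM) for the tested genes (genes with larger changes lie outside the axis), with the 40 tested transport genes in black, red (lower) and orange (higher). Most lie at high level and below 0, between -0.57 (TMED5) and 0.23 (COPG2).

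The promoters of these genes were read for motifs known from the unfolded protein and amino acid responses. RefSeq windows of 300 bases (GRCh38.p14, 250 before to 50 after each transcript start, gene strand) were at hand for 36 of the 41 genes by symbol, and not for ARF4, KDELR2, SEC24D, TMED4 and TMED9. Motifs were chosen after the values were seen, 12 were searched on both strands, and matches are given as descriptions with no test. The motif TGACGTGG, the core bound by XBP1 in the unfolded protein response, was present in windows of 8 genes, or 22.2% of the 36. It was present in 0.729% of all 35116 windows, and in 1.22% of the 9275 tested genes that had a window. The 8 genes are shown because they hold this rare motif, which stands in capitals in either orientation.
SEC16A, chr9:136484707-136484736, minus strand: tggccctggtgCCACGTCAgccggactgaa
SEC23A, chr14:39103221-39103250, minus strand: tcccctcctctTGACGTGGcagaggcggcg
SEC24A, chr5:134648595-134648624, plus strand: gtgagagtcggTGACGTGGcggcgaggccg
COPA, chr1:160343227-160343256, minus strand: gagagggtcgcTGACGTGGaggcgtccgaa
COPB1, chr11:14499841-14499870, minus strand: cccacccccttCCACGTCAgccaaggactc
COPB2, chr3:139389632-139389661, minus strand: tcccggaagttCCACGTCAgtcagtctgac
COPB2, chr3:139389825-139389854, minus strand: gctcagcggcaCCACGTCAcggcccttagt
ARF1, chr1:228082681-228082710, plus strand: cccggaggcgcTGACGTGGccgccgtcaga
KDELR3, chr22:38468039-38468068, plus strand: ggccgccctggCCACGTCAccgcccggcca

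Of these 8 genes only SEC16A was called lower, and the other 7 did not pass. The motif was thus in 1 of the 7 lower genes that had a window and in 7 of the 27 that were tested without passing. The shorter GCCACGT, which can overlap it, was in windows of 17 of the 36 genes and of 5.80% of tested genes. The ER stress elements, CCAAT and CCACG with 9 bases between or ATTGG and CCACG with 1 base between, and the amino acid response element TGATGCAAT, were in none of the 36 and in 0.162, 0.151 and 0.173% of tested genes. The looser CCAAT and CCAC with 9 bases between, TGACGTCA and TTGCATCA were also in none (0.41, 3.89 and 0.679% of tested genes). TGACTCA was in 1, ACGTG in 26 and CCACG in 34 of the 36, against 4.72, 32.8 and 57.5% of tested genes. CCACG was in 5 of the 7 lower genes that had a window and in all 27 that did not pass. For ACGTG these counts were 4 and 20.

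The short CCAAT box was present in windows of 16 of the 36 genes (44.4%), near the 43.8% of tested genes. It was present in all 7 lower genes that had a window and in 9 of the 27 that did not pass. The matches in the 7 lower genes are shown with CCAAT or its reverse complement ATTGG in capitals, since they are what these promoters share. They lay between 243 bases before and 2 bases after the transcript start.
TMED5, chr1:93180531-93180560, minus strand: gccatgatgcccATTGGtgggggaagccat
TMED7, chr5:115626257-115626286, minus strand: gccagtgATTGGagcgtaattaccctcgcc
TMED2, chr12:123584467-123584496, plus strand: tgcgggagcccgCCAATccactgcgcccgc
SEC23B, chr20:18507831-18507860, plus strand: aagcgctctttgATTGGccagtggacagcg
SEC23B, chr20:18507876-18507905, plus strand: ctggggcgctggCCAATcggttgagagctg
SEC16A, chr9:136484721-136484750, minus strand: ttagctgagcagATTGGccctggtgccacg
PREB, chr2:27134819-27134848, minus strand: tcatcaacctccATTGGctccacctcctcc
LMAN2, chr5:177351693-177351722, minus strand: tccggccggaggCCAATagatgggaccccc
LMAN2, chr5:177351780-177351809, minus strand: gaggctgcccggCCAATgcagctgccgccc

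SEC23B and LMAN2 each held the box at 2 places. SAR1A, the 1 higher gene that had a window, did not hold it. The letters CCAAT are common, were compared after the calls were known and were 1 of 12 motifs read.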

How the data were processed

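TRIzol RNA of the cultures was turned into stranded mRNA libraries, per the labels' protocols. TopHat 1.4.1, Cuffdiff 2.2.0 and hg19 are listed with no settings, per the submitters' processing notes. The authors deposited FPKM per gene and library. How libraries were scaled, how shared or antisense reads were assigned and the fragment depth are all not stated in the sources used here. Since FPKM are no counts, no count test was run. In limma, differences were judged against the spread between the 3 cultures per group, drawn toward a trend over all tested genes. Since the number of hairpins is not given, the p-values cannot be read as covering variation between hairpins.

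Tested were genes whose mean reached 1 FPKM (limma 3.58.1, R 4.3.3, trended prior, log2(FPKM + 1), all 6 libraries, Benjamini-Hochberg). Such fold changes understate those of low genes. Relative depth is the most frequent ratio of values under 0.3 FPKM. Locus starts count from 0 in the table and are printed counted from 1. Named in full were members past the threshold and, in a class without one, the most abundant, beside up to 8 genes of the wider list. KDELR2, KDELR3, SEC23A, SAR1B, TMED10 and COPG2 were added for their paralogues or level. CNIH1 was matched by Ensembl identifier. Members and lists were chosen with earlier results of these data known. Steps were tested on simulated data. Other settings were pseudocounts of 0.1 and 0.5, no filter or a mean of 5 FPKM, 3 scalings, array weights or no trend in limma, the replicate block, and leaving out each library. Figures used matplotlib 3.10.9.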

Additional observations from a re-analysis of the deposited data

How the results depend on the processing

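RBM47 kept its direction and passed under all 16 alternatives. Of 639 refits of single transport genes 565 kept direction and side of the threshold, 57 lost a call, 3 gained one (GORASP2, KDELR2 and TFG with array weights) and 14 changed sign. The 9 lower and 2 higher calls became 5 and 0 in limma without trend, 5 and 1 with no filter on low values, and 9 and 0 with the same upper quartile, while all genes called went from 1650 to 916 with no filter. Without 1 library the lower calls were 4 to 8, the higher calls 0 to 1, those of the wider list 4 to 10 and all genes called 630 to 1255. With the replicate block they were 4 lower, 0 higher, 4 in the wider list and 837 of all genes. The replicate numbers gave no sign of pairing. Same-numbered deviations correlated at 0.0187, -0.0961 and 0.0772, and different-numbered ones at -0.105 to 0.0905. With so few cultures per group, such values cannot show that the libraries were not paired. With fewer libraries fewer calls can follow, and the other causes were not tested.

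Sign changes concerned 6 genes with small main values and 2 share pairs. With quantile normalization KDELR1 was at 0.034, SEC24C at 0.012 and SEC31A at 0.016. With the same total KDELR1 was at 0.000537 and SEC24C at 0.0199, and with array weights SEC24C was at 0.0129. Over the fits leaving out 1 library GOLGA2 ran from -0.0113 to 0.0359, KDELR1 from -0.0523 to 0.00556, SEC23A from -0.0193 to 0.108, SEC24C from -0.0569 to 0.0604, SEC31A from -0.0601 to 0.00722 and TMED1 from -0.0303 to 0.156. The differences in share ran from -0.0492 to 0.0842 points for COPZ1 (COPZ2 -0.0842 to 0.0492) and from -0.0790 to 0.648 for ARF1 (ARF4 -0.648 to 0.0790). Fragment depth is unknown, which limits the least abundant genes.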
